A study of Mus musculus with 7 samples.

Results

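The genes of 6 transcription factors, Hnf4a, Hnf4g, Gata4, Gata6, Onecut1, and Onecut2, were examined in ATAC-Seq peak lists of sorted mouse alpha, beta, and delta cells. A window was the GENCODE gene body of a member with 20 kb added on each side, and every distinct peak interval overlapping a window was kept. The 6 genes are among 21755 protein-coding genes on the autosomes and the X chromosome, and their windows held 350 of the 1190565 peaks in the 7 lists. Cells came from the islets of mice that all carry mIns1-H2b-mCherry, a beta cell reporter, and Rosa-LSL-YFP, a reporter that Cre switches on. Either Gcg-Cre, which marks alpha cells, or Sst-Cre, which marks delta cells, was the third transgene. The labels call the animals healthy and give no age or treatment. Mice were pooled by sex for each of the 2 alpha, 3 beta, and 2 delta libraries, and alpha 1, beta 2, and delta 1 were female pools while the other 4 were male pools.

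HNF4 proteins are nuclear receptors that bind DNA as dimers, and Hnf4a and Hnf4g are paralogs active in liver, gut, kidney, and pancreas. GATA4 and GATA6 are zinc finger factors needed for pancreas formation, and the Onecut proteins, of which Onecut1 is also called HNF6, act upstream of endocrine progenitor genes. Hnf4a has a well-known pair of promoters, with the distal P2 used in islets and the proximal P1 used in liver and kidney.

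ATAC-Seq cuts and tags accessible DNA with a transposase, and a peak is a stretch where the tags pile up over the local background. The lists held between 75860 and 518503 distinct peaks, and between 5% (beta 1) and 54.9% (delta 2) of them reached a −log10 q of 2. Of the peaks of beta 1, 84.6% were tied at the lowest −log10 q of 0.0774, and so were 104 of its 125 peaks in the 6 windows. In their names, the 3 lists labelled beta are given as alpha or delta cells. Groups followed the labels, on which every beta value below rests. The names also place alpha 1, alpha 2, and beta 1 on one sequencing lane and the other 4 libraries on another, so alpha and delta cells cannot be told apart from the lanes. All 7 alpha markers had a peak with a −log10 q of at least 2 at a start in both alpha libraries, against 1 or 2 in the beta libraries and 4 or 5 in the delta libraries. Of the 4 delta markers, 3 had such a peak in both delta libraries, 0 or 1 in beta libraries, and 2 or 3 in alpha libraries. The 7 beta markers did not separate the libraries, with 3 to 5 in beta, 4 in each alpha, and 5 or 6 in delta, and Ins2 had no such peak in any library. Acinar markers reached at most 2 of 7, duct markers at most 3 of 6, endothelial and stromal markers at most 1 of 5, and immune markers 0 of 4 in any library.

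The annotated starts of the 6 genes fall into 16 clusters, each a chain of transcript starts within 500 bp of one another, out of 52275 for all protein-coding genes. Sequences are shown for 4 members at the starts on which the promoter comparisons turn, and for 2 distal regions whose peaks followed one cell type or were present in all libraries. They were read from the GRCm38 genome of RefSeq and run 5′ to 3′ on the strand of the gene. The first 4 are the 300 bases before the first start, the last 2 are the stretch common to the peaks of the libraries named, and none overlaps a GENCODE exon. Capitals mark matches to searched motifs and a run shared by both HNF4 genes.
Hnf4a P2, chr2:163506508-163506807, plus strand: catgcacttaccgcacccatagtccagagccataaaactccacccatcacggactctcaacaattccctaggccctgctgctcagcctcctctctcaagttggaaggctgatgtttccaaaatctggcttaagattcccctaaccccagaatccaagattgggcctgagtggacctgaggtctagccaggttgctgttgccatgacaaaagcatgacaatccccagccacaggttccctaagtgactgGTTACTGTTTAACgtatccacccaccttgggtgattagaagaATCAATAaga
Hnf4g 5′ start, chr3:3507730-3508029, plus strand: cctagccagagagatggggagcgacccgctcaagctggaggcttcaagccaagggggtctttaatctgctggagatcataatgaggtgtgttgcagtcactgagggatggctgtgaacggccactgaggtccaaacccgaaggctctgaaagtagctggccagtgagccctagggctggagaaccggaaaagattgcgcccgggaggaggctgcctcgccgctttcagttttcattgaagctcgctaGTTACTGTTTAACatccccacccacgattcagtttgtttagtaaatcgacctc
Gata4 start 3, chr14:63245272-63245571, minus strand: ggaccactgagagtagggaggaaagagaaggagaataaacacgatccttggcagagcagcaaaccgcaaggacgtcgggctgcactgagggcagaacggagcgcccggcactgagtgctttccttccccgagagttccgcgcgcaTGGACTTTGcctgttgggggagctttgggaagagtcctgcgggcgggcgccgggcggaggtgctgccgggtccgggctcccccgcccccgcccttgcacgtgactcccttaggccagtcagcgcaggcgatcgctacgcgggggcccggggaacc
Onecut1 5′ start, chr9:74861621-74861920, plus strand: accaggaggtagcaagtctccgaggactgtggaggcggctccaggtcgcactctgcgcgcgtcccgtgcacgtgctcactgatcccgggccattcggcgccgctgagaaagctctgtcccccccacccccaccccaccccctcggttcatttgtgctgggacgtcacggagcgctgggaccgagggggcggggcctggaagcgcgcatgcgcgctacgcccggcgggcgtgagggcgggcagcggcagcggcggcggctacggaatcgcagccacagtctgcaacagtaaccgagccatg
Hnf4g intronic region, common to the 3 beta peaks, chr3:3640875-3640998, plus strand: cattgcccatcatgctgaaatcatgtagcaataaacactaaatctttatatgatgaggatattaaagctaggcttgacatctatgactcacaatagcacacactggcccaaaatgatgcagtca
Onecut1 downstream region, common to the peaks of all 7 libraries, chr9:74909349-74909558, plus strand: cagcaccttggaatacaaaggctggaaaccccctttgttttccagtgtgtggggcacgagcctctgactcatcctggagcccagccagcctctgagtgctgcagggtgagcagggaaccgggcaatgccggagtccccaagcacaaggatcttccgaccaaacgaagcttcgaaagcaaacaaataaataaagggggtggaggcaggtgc

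The longest run common to the Hnf4a P2 and Hnf4g sequences was GTTACTGTTTAAC, 13 bases. It begins 52 bases before the Hnf4a start and 53 bases before the Hnf4g start, on the same strand. Of the upstream sequences of all 52275 start clusters, read on both strands, 4 held this run, and they belong to Hnf4a, Hnf4g, Cyp2c68, and Glis1. The other 5 pairs among the 4 upstream sequences printed shared at most 9 bases. It is given as a shared sequence and not as a site.

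The motifs reported here, searched on both strands, were AGATAA for GATA factors, TGTTTAC for FOX factors, CAAAGTCCA for HNF4, and ATCAATA for Onecut factors. The capitals at the 3′ end of the Hnf4a P2 sequence are a match to ATCAATA, which 2.59% of all upstream sequences hold. The capitals in the Gata4 sequence are a match on the other strand to CAAAGTCCA, held by 0.453% of them. The 2 Hnf4g and 2 Onecut1 sequences printed held none of the 4 motifs. Over the 16 member clusters, AGATAA was present upstream of 4, ATCAATA of 2, CAAAGTCCA of 1, and TGTTTAC of 0, against 13.5% for AGATAA and 3.82% for TGTTTAC over all clusters.

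Across the 16 start clusters, 7 had a peak within 500 bp in at least 2 alpha replicates, 6 in at least 2 beta replicates, and 7 in at least 2 delta replicates, and 4 had one in all 7 libraries. Over all 52275 clusters these shares were 29.8%, 28.7%, 28%, and 20.1%. With the same limit of 2 on −log10 q, the member counts were 6, 4, 6, and 4, against 26.4%, 20.5%, 24.5%, and 14.8% over all clusters. The clusters open in all 7 libraries were the 5′ starts of Hnf4g and Onecut2, the main start of Gata6, and a second Gata6 cluster 0.98 kb downstream that lies within reach of the same peak. The strength of a promoter peak was expressed as a standing, which is 100 for the peak of lowest p in a list, falls evenly to 0 at rank 50000, and is 0 for peaks of lower rank or absent peaks. Peaks of equal p were ordered by fold enrichment and then by genome position. The peak at rank 50000 had a −log10 q of 1.93 in delta 2 and 1.43 in beta 3. Those are also the values of the delta 2 peak at Hnf4a P2 and the beta 3 peak at the Onecut1 5′ start, both at a standing of 0. In the plot of standing by library, Hnf4g, Onecut2, and, outside beta cells, Gata6 lie near the top, and the other starts lie lower.

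**Figure D1:**
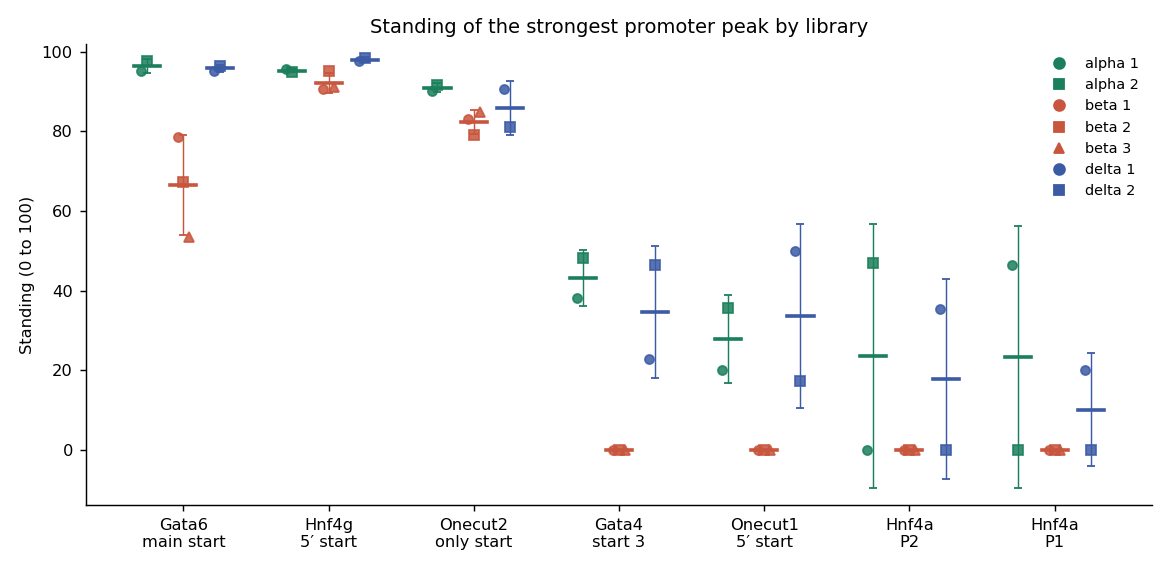
Standing (0 to 100) of the strongest peak within 500 bp of 7 member starts, 1 point per library, with the mean (horizontal bar) and SD (vertical bar) of 2 alpha, 3 beta, and 2 delta libraries. Beta points of Gata6 lie between 53.6 and 78.7, below the alpha and delta points between 95.1 and 97.6, and all beta points of Gata4, Onecut1, and Hnf4a are at 0.

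Hnf4g (ENSMUSG00000017688, GRCm38 chromosome 3, 3508030 to 3658052, plus strand) had the strongest promoter peak of the HNF4 genes, and it was present in every library. At its 5′ start the −log10 q was 35.8 and 40.5 in alpha, 10.2, 16.6, and 19.6 in beta, and 61.5 and 55.3 in delta cells. The beta values were the lowest and the delta values the highest, with no overlap. A −log10 q also depends on the depth of each library, and its part here and in the members below was not tested. The 3 beta lists had 25903, 32047, and 38058 peaks reaching a −log10 q of 2, against 41683 to 52057 in the other lists. Over all starts, how often the beta values were lowest in −log10 q was not counted, so this order in the members is a description. The standing, which ranks peaks within a library, was 95.3 ± 0.402 (SD, n = 2) in alpha, 92.3 ± 2.43 (SD, n = 3) in beta, and 98 ± 0.631 (SD, n = 2) in delta cells. The difference between cell types did not pass the exact permutation test, without direction, over all 210 assignments of the 7 libraries (p = 0.114, adjusted p = 1 over all clusters). The smallest p of this test is 0.00952. With assignments kept within sex, by which the mice were pooled, the exact permutation p was 0.0278, the smallest possible there. Summits in the 7 libraries lay between positions −78 and −46 relative to the start, over or next to the run shared with Hnf4a. The second annotated start, 126 kb downstream, had no peak within 500 bp in any library.

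Among regions without any alpha or delta peak, 1 of Hnf4g had peaks in all 3 beta libraries, in an intron after that second start. This region at 3640744 to 3641127, 133 kb from the 5′ start and 6.79 kb from the second start, had a peak in all 3 beta libraries, with a −log10 q of 1.93, 5.57, and 2.57, and in no alpha or delta library. A further region 138 kb from the 5′ start had peaks in beta 1 and beta 3, with a −log10 q of 0.598 and 2.57, and in no other library. Another intronic region, 75.1 kb from the start, was not limited to one cell type, with a −log10 q of 2.16 in alpha 1, 6.17 and 6.92 in beta 1 and beta 3, and 11.6 and 3.69 in the delta libraries. A peak 5.23 kb upstream of the 5′ start was called in both alpha libraries, beta 2, and delta 2, with a −log10 q between 1.23 and 3.41.

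Hnf4a (ENSMUSG00000017950, GRCm38 chromosome 2, 163506808 to 163572910, plus strand), the paralog whose promoters P2 and P1 lie 40 kb apart, had weak peaks at both. At P2 the −log10 q was 4.62 in alpha 2, 4.14 and 1.93 in delta 1 and delta 2, and 0.0774 in beta 1, and no peak was called in alpha 1, beta 2, or beta 3. The peaks of alpha 2 and delta 1 have their summits at positions −49 and −42 relative to the start, within the shared run. P2 thus had a peak in both delta replicates and in 1 replicate of each other cell type. At P1 a −log10 q of 2.98 was found in delta 1 over the starts themselves. Alpha 1 (4.52) and beta 1 (0.0774) shared a peak near P1 with a summit at position −585 relative to the first P1 start in alpha 1, and the other 4 libraries had none. The last start cluster, 43.3 kb from P2, had no peak in any library. Standing did not differ between cell types at P2 (exact permutation p = 0.429) or at P1 (exact permutation p = 0.429), and both promoters were at a standing of 0 in all 3 beta libraries. No library had a peak with a −log10 q of at least 2 at both promoters other than delta 1. Across the whole Hnf4a window, alpha libraries had 1 and 2 peaks of that strength, delta libraries 2 and 1, and the beta libraries 0.

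Onecut1 (ENSMUSG00000043013, GRCm38 chromosome 9, 74861921 to 74891781, plus strand) had a promoter peak in 6 of 7 libraries. Its −log10 q was 2.23 and 3.2 in alpha, 1.07 in beta 1 and 1.43 in beta 3, with no peak in beta 2, and 6.1 and 2.12 in delta cells. All alpha and delta values were above all beta values. The standing was 27.8 ± 11.1 (SD, n = 2) in alpha, 0 in each of 3 beta libraries, and 33.6 ± 23 (SD, n = 2) in delta cells, a difference that did not pass (exact permutation p = 0.143, adjusted p = 1). The beta 3 peak has the same −log10 q as the peak at rank 50000 of its list. Its standing of 0 can thus depend on how peaks of equal strength were ordered. A second start, 4.56 kb downstream, had no peak in any library.

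A region 17.7 kb past the end of Onecut1, at 74909089 to 74909795, was stronger than its promoter in all 7 libraries. There the −log10 q was 13.4 and 31 in alpha, 1.6, 3.25, and 7.89 in beta, and 39.9 and 21.2 in delta cells. Its standing was 79.9 and 91.8 in alpha, 42, 63, and 77 in beta, and 93.8 and 89.5 in delta libraries, so that the beta libraries were below all others. The difference between cell types did not pass (exact permutation p = 0.114, adjusted p = 0.514 over 17759 regions). Every beta standing was below every other standing in 8.63% of the regions called in all 7 libraries. The region lies outside every annotated exon, and peaks alone do not assign it to Onecut1.

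Gata4 (ENSMUSG00000021944, GRCm38 chromosome 14, 63198922 to 63271692, minus strand) has 4 start clusters, and the third from its 5′ end carried the peaks. At this start, 26.4 kb downstream of the first, the −log10 q was 3.45 and 4.88 in alpha, 2.98 and 4.48 in delta, and 0.0774 in beta 1, with no peak in beta 2 or beta 3. Both alpha and both delta libraries thus stood above all 3 beta libraries. The standing was 43.1 ± 7.16 (SD, n = 2) in alpha, 34.6 ± 16.7 (SD, n = 2) in delta, and 0 in each of 3 beta libraries. Over all clusters, including those at 0 in every library that cannot pass, 2.74% had an exact permutation p of at most 0.05. Of the 16 member clusters this start was the 1 that did (exact permutation p = 0.0476, adjusted p = 1). The p was 0.0833 with assignments kept within sex, so that a p of at most 0.05 was no longer reached. Without any 1 of beta 1, beta 2, and beta 3 it was 0.133. Groups of equal size then leave 0.0667 as the smallest possible p, so those runs could not reach 0.05. The first and second clusters, 0.568 kb apart, had only alpha peaks, with a −log10 q of 1.13 in alpha 1 and 1.02 in alpha 2. The fourth cluster had no peak in any library. An intronic region 15.7 kb from the 5′ start had a −log10 q of 3.3 and 6.09 in alpha, 5.37 in delta 1, and 1.1 and 1.43 in beta 1 and beta 3. The strongest region of the window lies at the start of Neil2, a DNA repair gene, and was called in all 7 libraries.

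The 6 windows are drawn by distance in the map of peaks, in which the strong promoter peaks of Hnf4g, Gata6, and Onecut2 run through every library.

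**Figure D2:**
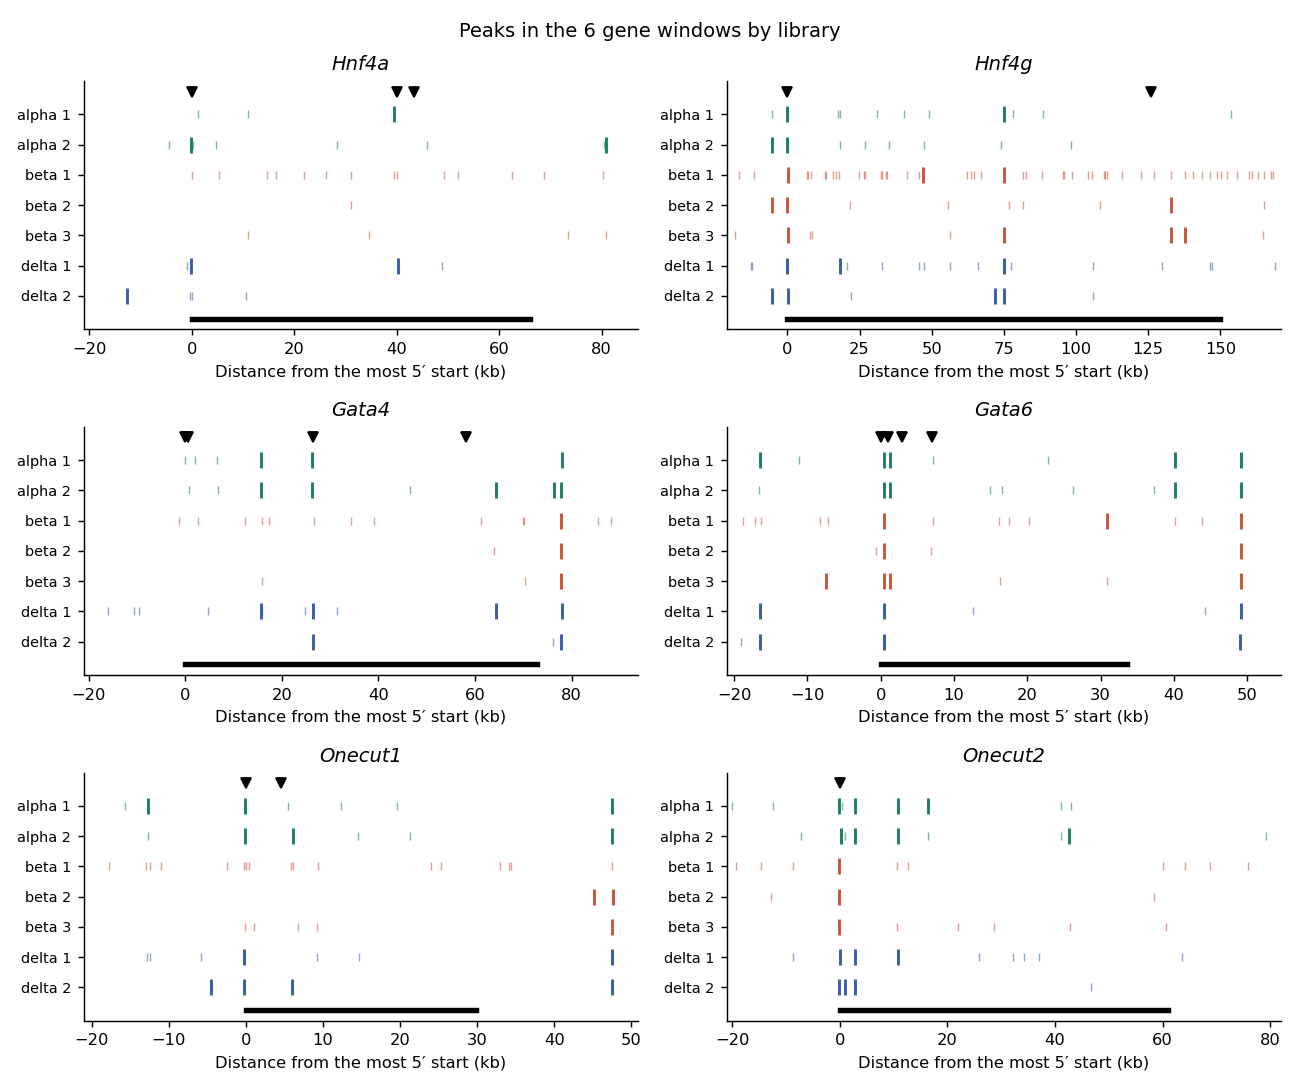
Peaks in the windows of the 6 genes, 1 row per library and 1 tick per peak, against distance from the most 5′ start (kb), with tall ticks for a −log10 q of at least 2, triangles for start clusters, and a black bar for the gene body. Beta 1 has 125 ticks in all and the other libraries between 21 and 53, and the Hnf4a panel holds no tall beta tick.

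Gata6 (ENSMUSG00000005836, GRCm38 chromosome 18, 11052064 to 11085635, plus strand) had a promoter peak in every library and the widest gap between beta cells and the other cell types among the promoters open in all 7. The −log10 q was 34.3 and 55.1 in alpha, 5.01, 3.92, and 3.4 in beta, and 45.3 and 40 in delta cells. The fold enrichment at the summit was 10.8 and 12.3 in alpha, 5.8, 5.13, and 4.71 in beta, and 13.2 and 15.7 in delta cells. The beta values lay below all alpha and delta values on both measures, while alpha and delta overlapped on −log10 q. The standing was 96.4 ± 1.73 (SD, n = 2) in alpha, 66.6 ± 12.6 (SD, n = 3) in beta, and 95.8 ± 0.926 (SD, n = 2) in delta cells. This did not pass the test (exact permutation p = 0.124, adjusted p = 1). Within the lane of the alpha libraries the mean was 96.4 in alpha against 78.7 in beta 1, and within the other lane it was 95.8 in delta against 60.5 in 2 beta libraries. The same peak lies over the start of 1010001N08Rik, a transcript on the opposite strand, and ATAC-Seq does not separate the promoters. Next to the start 0.98 kb downstream, a separate region lay at 11053099 to 11053467. Its −log10 q was 3.31 and 4.31 in alpha and 2.48 in beta 3, with no peak in beta 1, beta 2, or either delta library. Starts 2.97 and 6.98 kb downstream had no peak, and peaks with a −log10 q of 1.18 or below in 3 libraries, respectively.

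A region 15.5 kb past the end of Gata6, at 11100941 to 11101310, had the opposite order. Its −log10 q was 17.5 and 15.8 in alpha, 22, 21.7, and 31.2 in beta, and 18.6 and 24.9 in delta cells. The standing was 85.3 and 80.1 in alpha, 97.3, 96.8, and 95.6 in beta, and 82 and 91.8 in delta libraries, so every beta library was above every other library. That order held in 8.06% of the regions called in all 7 libraries, and the cell types did not differ past the threshold (exact permutation p = 0.0571, adjusted p = 0.455). In each library the standing of the downstream region minus that of the promoter was −9.87 and −17.4 in alpha, 18.6, 29.5, and 42 in beta, and −13.2 and −4.73 in delta cells. The downstream region was thus the stronger in 3 of 3 beta libraries and the weaker in 4 of 4 others. Both regions were set side by side after their values were seen, so this contrast is a description. A second downstream region, 6.58 kb past the gene, had a −log10 q of 22.5 in alpha 1, 2.03 in alpha 2, and 1.1 in beta 1, so its strength rested on 1 library. A region 16.5 kb upstream of the start had peaks in both alpha and both delta libraries, with a −log10 q of 2.07, 1, 4.14, and 4.98, and in beta 1 at 0.0774.

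**Figure D3:**
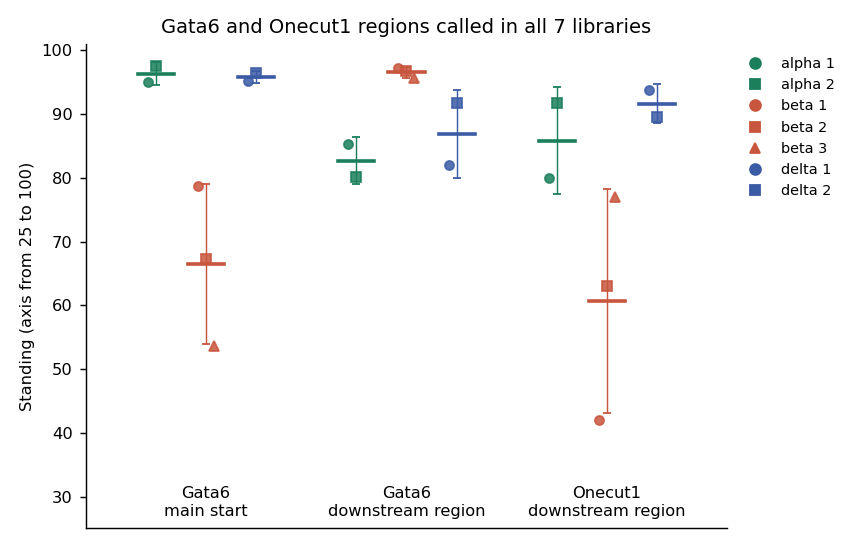
Standing of 3 regions called in all 7 libraries, 1 point per library, with the mean (horizontal bar) and SD (vertical bar) of 2 alpha, 3 beta, and 2 delta libraries, on an axis from 25 to 100. At the Gata6 downstream region the beta points, between 95.6 and 97.3, are above the rest, and at the Gata6 main start and the Onecut1 downstream region they are below the rest.

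Onecut2 (ENSMUSG00000045991, GRCm38 chromosome 18, 64340020 to 64400987, plus strand) has 1 start cluster, with a peak in every library. The −log10 q there was 23.3 and 30.9 in alpha, 6.27, 5.82, and 12.2 in beta, and 31.2 and 13.5 in delta cells. The beta values were again the lowest, while the standing overlapped, at 91 ± 1.11 (SD, n = 2) in alpha, 82.4 ± 2.94 (SD, n = 3) in beta, and 85.9 ± 6.79 (SD, n = 2) in delta cells (exact permutation p = 0.229, adjusted p = 1). Peaks were also found in its introns. A region 2.83 kb from the start had a −log10 q of 2.74 and 2.21 in alpha and 7.51 and 5.78 in delta cells, and no peak in any of 3 beta libraries. A region 10.8 kb from the start was called in both alpha libraries and delta 1 with a −log10 q of 3.39, 2.95, and 2.98, and at 1.1 and 1.43 it appeared in beta 1 and beta 3. Farther in, the regions 16.4 and 41.2 kb from the start had peaks in both alpha libraries only, with a −log10 q between 0.943 and 2.16.

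Counted over whole windows, the peaks per 100000 peaks of a library had their highest mean for Hnf4g in all 3 cell types, at 8.39 and 7.15 in alpha, 10.8, 9.88, and 8.66 in beta, and 10.8 and 7.91 in delta libraries, and its window of 190 kb is also the widest. None of the 6 densities differed between cell types, with exact permutation p between 0.124 and 0.552 (adjusted p = 1), against 4.46% of all genes at an unadjusted p of at most 0.05. When the count was limited to a −log10 q of 2 or more, the Onecut2 window held 4 and 4 in alpha, 1, 1, and 1 in beta, and 3 and 3 in delta libraries. Per 100000 peaks of that strength this was 7.68 and 8.16 in alpha, 3.86, 3.12, and 2.63 in beta, and 6.38 and 7.2 in delta libraries (exact permutation p = 0.00952, the smallest possible, adjusted p = 0.555). The other 5 windows did not pass, and 7.53% of all genes did at an unadjusted p of at most 0.05. The density of the Hnf4g window went the other way, with 10.5 ± 1.11 (SD, n = 3) in beta against 3.96 ± 0.167 (SD, n = 2) in alpha and 7.99 ± 2.28 (SD, n = 2) in delta cells (exact permutation p = 0.0571, adjusted p = 0.605). As counts, the Hnf4g window held 2 and 2 such peaks in alpha, 3, 3, and 4 in beta, and 3 and 4 in delta libraries. The beta lists of such peaks, by which the counts were divided, are the shortest.

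Regions formed by overlapping peaks of at least 2 libraries, the consensus, numbered 49 in the 6 windows, of 133698 in all. Hnf4g had 14 of them, Gata6 and Onecut2 8 each, Gata4 7, and Hnf4a and Onecut1 6 each. Among the 49, 10 lay at a member start, 3 at the start of another gene, 25 in introns, 1 in an exon of Gata4, and 10 in the flanks. In all 7 libraries 6 of the 49 were called, against 13.3% of all consensus regions. They are the promoters of Hnf4g, Gata6, Onecut2, and Neil2 and the regions downstream of Gata6 and Onecut1.

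Selective regions, called in 2 or more replicates of a cell type and absent from every list of a second one, were most often beta regions when all peaks were counted, at shares near those of all regions. Of the 49, 9 (18.4%) were open in beta and in no alpha library, against 14.8% of all regions, and 8 (16.3%) in beta and in no delta library, against 13.2%. Of these beta regions, 5 of the 9 and 5 of the 8 rest on a beta 1 peak at its lowest −log10 q, and 1 of each was left with a limit of 2 on −log10 q, the region 133 kb into Hnf4g. With that limit 20 consensus regions remained and the order changed. Of these 20, 6 were open in alpha and in no beta library (30%, against 14.9% of all such regions), 4 in delta and no beta (20%, against 13.5%), 1 in beta and no alpha (5%, against 5.63%), and 1 in beta and no delta (5%, against 4.15%). Open in alpha cells were 4 (8.16%) with no beta and 6 (12.2%) with no delta library, against 5.41% and 5.38%, and in delta cells 1 (2.04%) with no alpha and 2 (4.08%) with no beta library, against 5.13% and 4.85%. The alpha regions without beta peaks were 3 intronic regions of Onecut2 and 1 of Gata4. The 2 delta regions without beta peaks were the Onecut2 region at 2.83 kb and an Hnf4g intronic region at 106 kb, with a −log10 q of 0.199 and 1.93. Matches to ATCAATA were in the central 300 bases of 4 of the 49 regions (8.16%), against 2.9% of all regions, and they lie at Hnf4a P2, in an intron of Gata4, and in 2 intronic regions of Onecut1. AGATAA was in 8.16% against 14.8%, TGTTTAC in 8.16% against 6.67%, and CAAAGTCCA in 0% against 0.572%.

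Lower standing in beta libraries was common among the start clusters compared here. Of 13741 start clusters with a standing above 0 in at least 4 libraries, the standing of every beta library was below every other in 13.7% (1880 clusters) and above every other in 416 clusters. The median of the alpha and delta mean minus the beta mean was 4.45. This limit admits starts at 0 in every beta library but none open in beta libraries alone, so the set leans towards low beta standing. The members with such a start gave 38.9 for Gata4, 30.7 for Onecut1, 29.5 for Gata6, 6.08 for Onecut2, and 4.39 for Hnf4g. Gata6 did not overlap between beta and the other libraries. Gata4 and Onecut1, at 0 in every beta library, met the limit through alpha and delta libraries alone, so their lack of overlap follows from it. The differences listed lie at percentiles 90.9, 85, 84, 54.3, and 49.8 of all those clusters, in the same order.

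**Figure D4:**
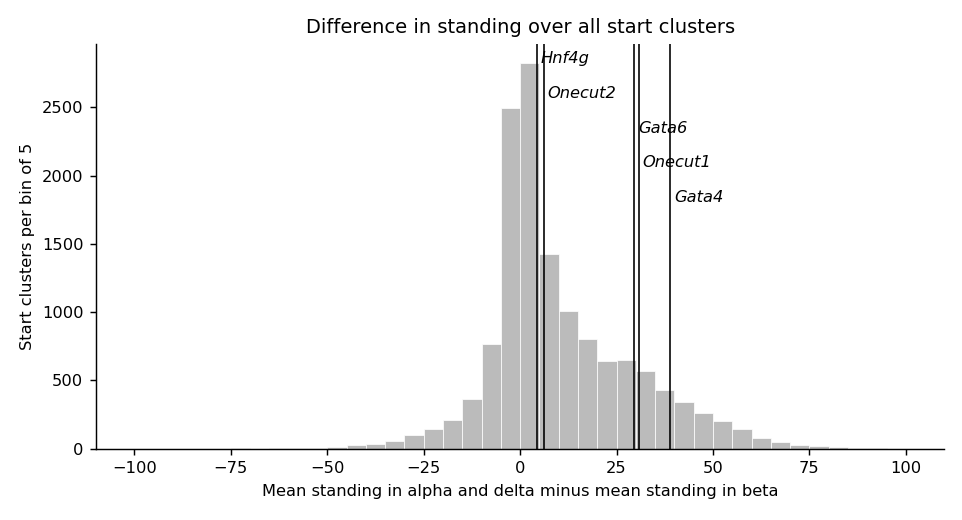
Number of start clusters, of 13741, per bin of 5 in the mean standing of the 4 alpha and delta libraries minus that of the 3 beta libraries, with vertical lines at the 5 members that have such a start. Hnf4g (4.39) and Onecut2 (6.08) sit near the centre, and Gata6 (29.5), Onecut1 (30.7), and Gata4 (38.9) in the right part of the distribution.

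Among 20 related factors, taken at their 5′ start, 11 had a peak in at least 2 alpha replicates, 11 in at least 2 beta replicates, and 9 in at least 2 delta replicates. Over all start clusters, which also hold downstream starts, these shares were 29.8%, 28.7%, and 28%, and the share over 5′ starts alone was not counted. None of the 20 had an exact permutation p of at most 0.05 for standing. Foxa2, a pioneer factor of endoderm, Zfpm1, a GATA cofactor, and Cebpa, a liver and fat cell factor, had a peak with a −log10 q of at least 2 in all 7 libraries. Of the paralogs of the members, Onecut3 had no peak at its 5′ start and Gata5 had a weak peak in beta 1 alone. Gata3, named after its values were seen, had a peak in all 7 libraries and in 5 at that strength, and its mean standing was 24.2 for alpha, 52.5 for beta, and 65.6 for delta libraries. At its 5′ start Gata2 had peaks in 2 beta libraries and no other, all below a −log10 q of 2, while any of its starts was open in 6 libraries and in 2 at that strength. Rxra, a nuclear receptor, had peaks at its 5′ start in both alpha and 2 beta libraries and in no delta library. With all of its starts counted, a peak was present in all 7 libraries.

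The 5′ starts whose standing over the 7 libraries was nearest to that of a member were found by the sum of absolute differences. For Hnf4g these were Pcdh17 (4.83) and Mrps14 (7.39), and for Onecut2 Mns1 (11.5) and Mrps26 (11.7). For Onecut1 they were Cldn4 (18.3) and Plxna4 (22.4), both at 0 in every beta library. For Gata6 they were Lzts3 (28) and Baiap2l1 (35), in both of which every alpha and delta standing was above every beta standing.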

How the data were processed

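ATAC-Seq libraries of single-end 50 bp reads came from a median of 20000 sorted cells per sample. The authors trimmed reads with Trimmomatic, aligned them with Bowtie2 to mm10, marked duplicates with Picard, and ran MACS2 on every library on its own, with a threshold and versions not given in the sources used here. The deposited −log10 p and −log10 q of a peak, its fold enrichment, and its score come from that library alone. Reads outside peaks were not analysed here, so a missing peak does not show closed chromatin and has no detection limit. Read totals are not part of the lists. By the study's supplement, which also gives the sex of each library, beta libraries 1 and 2 had the fewest unique reads. Its read counts are not used here.

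Intervals repeated with other summits were counted 1 time. Windows and start clusters came from GENCODE vM21, and peaks overlapping by at least 1 bp were merged. Standings and densities were compared by exact permutation of the 7 libraries, without direction. Benjamini-Hochberg adjustment was made over all clusters, regions, or genes (Python 3.11.15, numpy 2.4.6, pandas 2.3.3, pysam 0.24.0), with code tested on simulated data. The study took the cell types from the same animals, so beta libraries can share mice with alpha or delta libraries, and the labels do not say which. The p-values give the share of regroupings of these libraries that differ at least as much as the cell types. They take the libraries as exchangeable, which was not tested. All 6 members are described, with related factors fixed by name and those open in one cell type and absent from another, and the 2 nearest patterns of a member with a standing above 0 in at least 4 libraries at its 5′ start. Of the factors and motifs fixed by name, some are not reported here. The members, lists, and motifs were chosen with earlier results of these data known. The tests of regions called in all 7 libraries, the densities of strong peaks, the shared run, and the counts of groups that do not overlap were added after values were seen.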

Additional observations from a re-analysis of the deposited data

How the results depend on the processing

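The counts of member starts with a peak stayed within 1.5 times under every alternative run. With a limit of 2 on −log10 q, the 49 consensus regions became 20, the alpha regions without beta peaks 6 (from 4), those without delta peaks 2 (from 6), the beta regions without alpha or without delta peaks 1 each (from 9 and 8), the delta regions without alpha peaks 0 (from 1), the delta regions without beta peaks 4 (from 2), and the windows whose density passed 1 (Onecut2). Limited to the 50000 peaks of lowest p per list, 20 consensus regions remained and 0 windows passed. The alpha regions without beta peaks were then 3 and those without delta peaks 2. The beta regions without alpha or without delta peaks were 1 each, and the delta regions without alpha peaks 1 and without beta peaks 4. The shares over all consensus regions were not counted for the setting of 50000 peaks. At the limit on −log10 q they were not counted for alpha regions without delta peaks or delta regions without alpha peaks. Those member counts are descriptions. Regions of at least 3 libraries numbered 24. With 5 kb flanks, 1 window passed (Gata4, exact permutation p = 0.019). For the promoter standing, 0 starts in place of 1 passed with ranks among the 25000 peaks of lowest p, where the Gata4 start has a standing of 0 in all 7 libraries.

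With 1 alpha or delta library left out, a lone replicate stood for its cell type, and no test is read from those runs. With 1 beta library left out, groups of equal size leave 0.0667 as the smallest possible exact permutation p, so no start or window could pass. For the counts of regions with 1 library left out, the shares over all consensus regions were not counted, so the ranges are descriptions. The regions ranged from 1 (without alpha 2) to 10 (without beta 1) for alpha without beta peaks, from 6 to 10 (without delta 1) for alpha without delta, from 1 (without beta 1) to 10 for beta without alpha, from 1 (without beta 1) to 11 for beta without delta, from 0 (without delta 1) to 5 (without delta 2) for delta without alpha, and from 2 to 5 (without beta 1) for delta without beta.

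With the replicate block, 36 assignments remain and the smallest p is 0.0556, so that 0 starts and 0 windows could pass, and the Gata4 start was at that smallest p. Same-numbered libraries correlated between −0.0345 and 0.436 in their deviations from the cell type means, so the numbers were not taken as pairs. With assignments within sex, the Hnf4g 5′ start reached an exact permutation p of 0.0278, the smallest possible there, and the Gata4 start 0.0833. Beta 1, with few strong peaks, and the number of libraries limit every comparison with beta cells.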
